A study of Caenorhabditis elegans with 51 samples.

Results

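HRDE-1 is a nuclear Argonaute protein of the C. elegans germline, and the comparison described here sets the small RNA that came down with it against the small RNA it was taken from. Argonaute proteins carry short RNAs that guide them to complementary transcripts. HRDE-1 is known to carry secondary siRNAs, made by RNA-dependent RNA polymerases on target transcripts, and to keep genes silent across generations. CSR-1, another germline Argonaute, is known to carry siRNAs against genes that the germline expresses, and ERGO-1 carries primary siRNAs against a small set of repeated genes and pseudogenes.

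The rule took every gene of one deposited table and 4 of the series' 51 samples. These were 2 libraries of HRDE-1 sRIP (small RNA immunoprecipitation) and 2 libraries of input. All 4 came from young adults of 1 strain, CSS342, which carries the allele Cer3(red20), a fragment of oma-1 placed in the retrotransposon Cer3. It also carries tagged forms of both Argonautes, SF-HRDE-1 and c-myc-CSR-1, so precipitate and input share all 3 alterations. Per the labels the linker ligation did not depend on a monophosphate at the 5' end, so primary and secondary siRNAs can both be in the libraries. The labels name no precipitation from an untagged strain, so RNA carried over without binding cannot be told apart from bound RNA. They do not say whether replicates came from separate cultures, so the spread behind each p-value may be technical. The samples are bulk RNA of whole animals, in which fewer cells of a type and less RNA per cell cannot be told apart. 2 CSR-1 sRIP libraries of the same strain entered the fit only to estimate the spread.

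The HRDE-1 sRIP libraries held 4872549 and 3248065 reads, against 2728020 and 2104162 reads in the input. Of these, 48.2% and 50.3% lay on gene models in HRDE-1 sRIP, against 49.5% and 51.4% in the input. These totals were deduced from the steps of the deposited values, which are RPKM, reads scaled to gene model length and library size. A chi-square test of read counts, divided by its degrees of freedom, gave 0.960 for the input pair. Its libraries thus differed by less than the sampling noise, so they count as 1 sample and the input has no SD. The HRDE-1 pair gave 1.86 and the CSR-1 pair 1.03. The CSR-1 pair, close to counting noise, stayed as 2 samples and gave 1 of the 2 residual degrees of freedom. Of 20202 genes in the table, 10908 reached 1 RPKM in at least 2 of the 6 libraries and were tested. Each fold change is HRDE-1 sRIP over input, taken on log2(RPKM + 1), and understates the change of genes at low levels. A gene was called with a limma adjusted p under 0.05 and a log2 fold change of at least 1 in either direction.

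Small RNA against 780 genes rose in the HRDE-1 precipitate and that against 1124 genes fell, which is 7.15% and 10.3% of the genes tested. Gains were modest in size and losses had a long tail. The median called gene differed 2.34-fold among gains and 2.33-fold among losses. The groups stood apart, with no overlap of values, for all 780 gained genes and for 1123 of the 1124 lost genes. They also stood apart for 6766 of the 9004 genes not called, so a lack of overlap alone says little about a gene. Only 9 gained genes had a log2 fold change of at least 2, and 5 of these had 0 reads in the input. Among losses 90 genes passed that size and 30 had a log2 fold change of -3 or lower. Gained genes had a median level of 15.2 RPKM in HRDE-1 sRIP and 5.37 RPKM in the input. Lost genes had a median of 7.96 RPKM in HRDE-1 sRIP and 20.7 RPKM in the input. As a share of all reads on genes, the gained genes took 5.98% and 5.80% of the HRDE-1 libraries, against 2.46% and 2.29% of the input libraries. The lost genes took 4.02% and 3.49% of the HRDE-1 libraries, against 9.87% and 9.93% of the input libraries. Genes tested and not called took 89.5% and 90.3% of the reads on genes in HRDE-1 sRIP, against 87.3% and 87.4% in the input.

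The calls rest on few samples and on the scale. Without HRDE-1 replicate 1, limma called 92 genes higher and 97 lower, and without HRDE-1 replicate 2 it called 101 and 67. Without either CSR-1 replicate it called 0 and 0, with 5512 and 5508 genes at an unadjusted p under 0.05. With the input libraries as 2 samples, an alternative chosen after seeing the data, the same omissions gave 673 higher and 1447 lower, 770 and 895, 908 and 1149, and 906 and 1149. With library medians centred, the median of all genes moved by 0.39 and the split became 2309 higher and 328 lower. Gains were then 87.6% of all calls, against 41.0% on the deposited scale and 50.8% with each sample's median log2 ratio to input at 0 (1032 higher and 998 lower). Directions given below are on the deposited scale. After centring, groups and uncalled genes whose log2 fold change lies within about 0.39 below 0 turn positive.

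**Figure D1:**
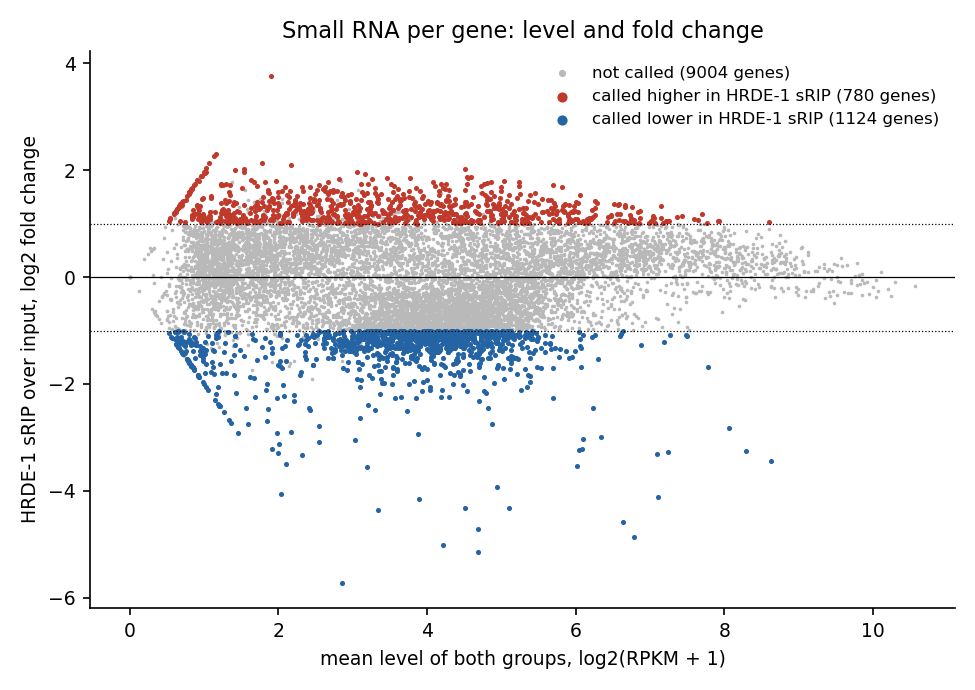
Each point is 1 of the tested genes, with the mean level of both groups on the x axis (log2 of RPKM + 1) and the log2 fold change of HRDE-1 sRIP over input on the y axis. Of the 780 genes called higher 9 reach a log2 fold change of 2, while the 1124 genes called lower reach down to -5.72 and 90 of them lie at -2 or lower. With library medians centred the counts were 2309 and 328.

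Of the 8 genes with the most small RNA in each group, 5 were shared. The 8 highest genes of HRDE-1 sRIP were F02C12.3, B0250.8, C24H10.4, T26E3.7, F37D6.3, bath-45, W03H9.3 and T22B2.2, and none of them was called. F02C12.3 had 1240 and 1639 RPKM in HRDE-1 sRIP, against 1533 and 1687 RPKM in the input. B0250.8 had 1059 and 1388 RPKM in HRDE-1 sRIP, against 1207 and 1380 RPKM in the input. Both genes were lower in HRDE-1 replicate 1 than in replicate 2, and the groups overlapped. The 8 highest genes of the input included 1 that was called, C44B11.6. It had 111 and 129 RPKM in HRDE-1 sRIP, against 1252 and 1357 RPKM in the input (log2 fold change -3.44 ± 0.22 SE, limma adjusted p = 0.00893).

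By level, losses were most frequent at 10 to 30 RPKM on the deposited scale. Among genes with a mean of both groups in that range, 5.71% rose and 16.2% fell, and the median log2 fold change was -0.55. Among genes at 100 to 300 RPKM, 5.49% rose and 1.72% fell, with a median of 0.41. Of 198 genes at 300 RPKM or more, 1 rose and 2 fell. At 3 to 10 RPKM 207 of 2224 genes rose (9.31%) and 258 fell. Under 1 RPKM 9.84% rose and 14.8% fell, and at 30 to 100 RPKM 7.22% and 6.30%. After centring the median at 10 to 30 RPKM was -0.17, and 13.6% rose and 3.40% fell there, while falls were most frequent under 1 RPKM, at 6.39%. The mean level holds the same values as the fold change, so levels were also taken from input replicate 1 and folds against input replicate 2, with no test. Genes at 10 to 30 RPKM then had 6.88% at least 2-fold higher and 19.1% at least 2-fold lower, with a median of -0.54. In this binning 18.5% were higher and 9.5% lower at 3 to 10 RPKM, and 4.6% higher and 13.4% lower at 30 to 100 RPKM. Both splits were opposite to those by the mean level. The splits at 100 to 300 RPKM (3.44% higher and 4.82% lower, median 0.29) and under 1 RPKM (19.1% higher and 3.03% lower) were opposite too. At 1 to 3 RPKM 18.2% were higher and 8.26% lower. At 1 to 3 RPKM a gene has few reads, so the counting error is part of these shares.

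**Figure D2:**
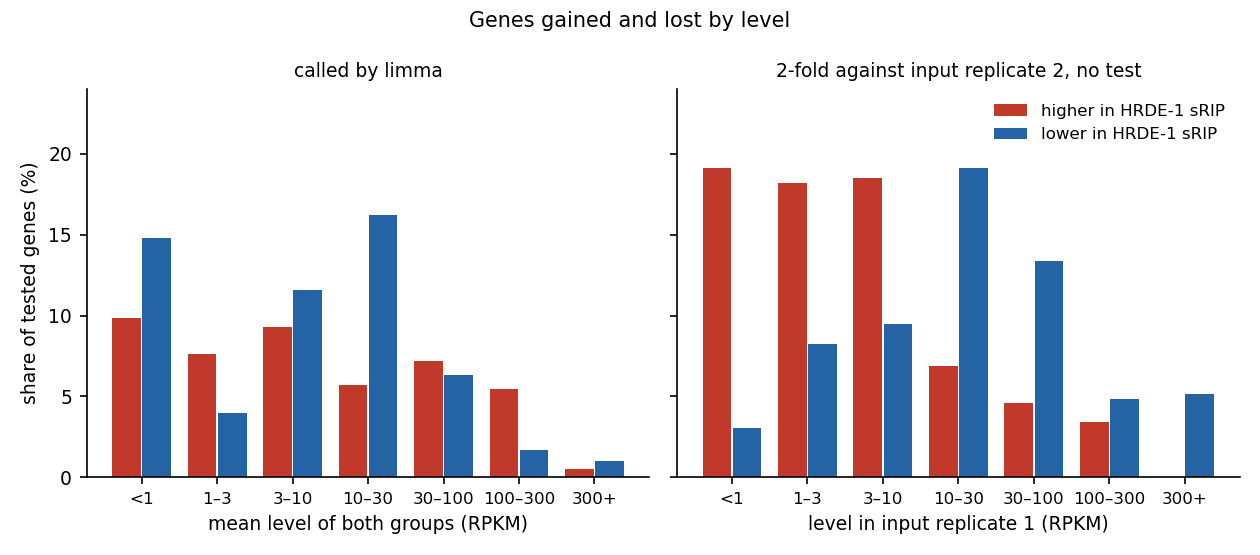
Bars give the percent of tested genes that were higher (red) or lower (blue) in HRDE-1 sRIP than in the input, by level in RPKM. On the left, genes are binned by the mean of both groups and called by limma. On the right, they are binned by input replicate 1 and counted where they differ at least 2-fold from input replicate 2. In both panels losses peak at 10 to 30 RPKM, at 16.2% and 19.1%, while after centring called falls peaked under 1 RPKM, at 6.39%. The filter on low values bears on the shares under 1 RPKM.

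X-linked genes gained small RNA in the precipitate more often than genes of any autosome. The germline largely silences the X chromosome, which carries few of the genes that the germline expresses strongly. Of 1169 X-linked genes tested, 201 rose and 44 fell (17.2% and 3.76%), with a median log2 fold change of 0.50. With no filter on low values 6.18% of X-linked and 2.53% of autosomal genes rose, the X median was 0.22 and its distance to the autosomal median was 0.24, against 0.62 with the filter. Of 9456 autosomal genes, 562 rose (5.94%) and 1053 fell, with a median of -0.12. Among autosomes, chromosomes V and II stood nearest the X, with 8.56% and 7.88% higher. Chromosomes I and III had the smallest shares, with 3.64% and 3.57% higher and 11.8% and 12.5% lower. The medians within replicates 1 and 2 were 0.58 and 0.48 for the X, and those of chromosome III were -0.20 and -0.36. After centring all 6 chromosome medians were positive, at 0.12, 0.40, 0.10, 0.22, 0.48 and 0.89 for I, II, III, IV, V and X, so the sign for I, III and IV turned. Chromosomes and genes on them were described with no test, because genes of 1 library are not replicates.

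The X also carried less small RNA in the input, with a median of 3.57 RPKM, against 12.01 to 20.85 RPKM on the autosomes. Genes of like mean level of both groups still differed, though this mean holds the same values as the fold change. In its bin of 10 to 30 RPKM the median input level was 12.6 RPKM on the X, against 21.3 RPKM on the autosomes. Bins by input level alone were not compared for the X. At 3 to 10 RPKM 19.3% of 290 X-linked genes rose, against 7.97% of 1857 autosomal genes. At 10 to 30 RPKM 27.7% of 184 X-linked genes rose and 3.26% fell, against 4.54% and 17.1% of 3241 autosomal genes. At 30 to 100 RPKM 40.4% of 109 X-linked genes rose, against 5.25% of 1829 autosomal genes. Below 3 RPKM the shares lay close together, with 6.46% of X-linked and 7.65% of autosomal genes higher at 1 to 3 RPKM. The X showed this pattern along its length, with 16.1%, 18.0% and 17.7% of genes higher in its first, middle and last segment of 3 equal ones.

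The direction of the autosomal median depended on the scale. With library medians centred it was 0.27, and that of the X was 0.89. The share of X-linked genes called higher was then 42.6%, against 18.6% of autosomal genes. When HRDE-1 replicate 1 or 2 was left out, 12 and 14 X-linked genes were called higher and 8 and 2 lower, and without either CSR-1 replicate 0 in both directions. With the input as 2 samples, leaving out HRDE-1 replicate 1 or 2 gave 184 and 193 X-linked genes higher.

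**Figure D3:**
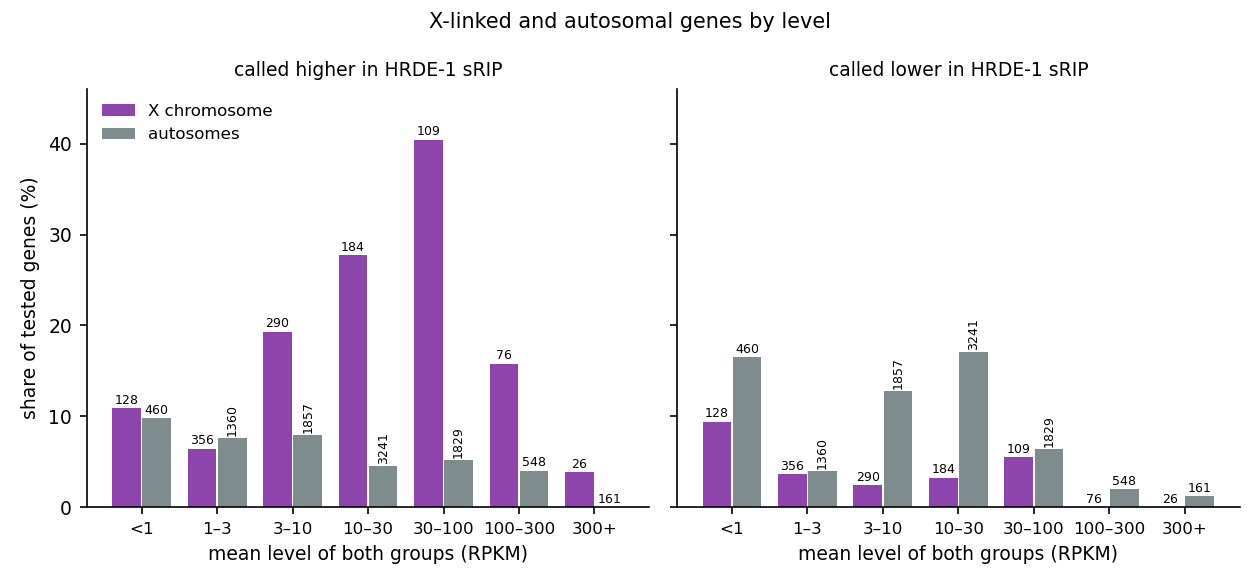
Bars give the percent of tested genes called higher (left) or lower (right) in HRDE-1 sRIP, for X-linked genes (purple) and autosomal genes (grey). Bins are of the mean level of both groups in RPKM, which holds the same values as the fold change. The number of genes is above each bar. At 30 to 100 RPKM 40.4% of X-linked genes were called higher, against 5.25% of autosomal genes. With library medians centred, 42.6% of X-linked and 18.6% of autosomal genes were called higher over all levels.

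Members of the same machine could differ by chromosome. Small RNA against asb-2, on the X, had 59.1 and 61.6 RPKM in HRDE-1 sRIP, against 26.3 and 28.1 RPKM in the input (log2 fold change 1.12 ± 0.16 SE, limma adjusted p = 0.0105). Its paralog asb-1, on chromosome III, had 6.07 and 3.22 RPKM in HRDE-1 sRIP, against 17.2 and 17.8 RPKM in the input (-1.76 ± 0.33, limma adjusted p = 0.0167). The paralogs encode the b subunit of the mitochondrial ATP synthase, asb-1 being the germline form, and they moved in opposite directions. Their groups did not overlap, which held for nearly all called genes. The ATP synthase gene asg-2, also on the X, had 39.9 and 46.4 RPKM in HRDE-1 sRIP, against 20.01 and 15.57 RPKM in the input, and rose (1.23). The asb-1 and asg-2 calls were lost with no filter on low values. Of 67 respiratory chain and ATP synthase genes 2 rose and 11 fell (2.99% and 16.4%, against 7.15% and 10.3% of all genes). Both that rose are X-linked. The 5 X-linked members had a median of 0.71 and the 62 autosomal members one of -0.62. Among DnaJ co-chaperones, which assist heat shock proteins, the X-linked dnj-7 rose, with 126 and 139 RPKM in HRDE-1 sRIP, against 65.9 and 60.3 RPKM in the input (1.05, not called without input replicate 2). The other called members, dnj-25 and dnj-12, are autosomal and fell by 1.16 and 1.05 on the log2 scale, calls that were lost after centring. The 2 X-linked ribosomal protein genes, rpl-11.2 and rpl-25.1, had log2 fold changes of 0.43 and 0.68 and were not called, while 58 of the 76 autosomal members fell. An exception was eft-4, an X-linked elongation factor gene, which fell by 1.06. It shares much of its sequence with the autosomal eft-3, and whether reads were shared between them was not tested. The X-linked hsp-25, ucr-2.2 and his-24 also lay below 0, at -0.55, -0.35 and -0.30, and were not called. The remaining X-linked members of the housekeeping lists lay above 0.

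Genes of the cytosolic ribosome lost small RNA in the precipitate. Of 78 cytosolic ribosomal protein genes, all of them tested, 58 fell and 0 rose, which is 74.4% against 10.3% of all genes. Their median log2 fold change was -1.43, against -0.03 for all genes. The 31 small subunit genes had 25 falls and the 47 large subunit genes 33, so both subunits were affected. rpl-21 had 2.66 and 3.41 RPKM in HRDE-1 sRIP, against 17.6 and 22.8 RPKM in the input (-2.40 ± 0.24 SE, limma adjusted p = 0.0093). rps-25 had 5.81 and 5.37 RPKM in HRDE-1 sRIP, against 26.4 and 35.2 RPKM in the input. These are small numbers of reads, 7 and 6 for rpl-21 in HRDE-1 sRIP, against 26 and 26 in the input. As a whole the 78 genes took 0.121% and 0.105% of reads on genes in HRDE-1 sRIP, against 0.263% and 0.283% in the input. With HRDE-1 replicate 1 or 2 omitted, 2 and 3 of the genes were called lower, and without either CSR-1 replicate 0. With the input as 2 samples those omissions gave 58, 57, 60 and 60, and centring gave 44.

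Few genes of the mitochondrial ribosome were called. Of 69 genes 3 fell and 0 rose, a share of 4.35% that lies below the 10.3% of all genes, and the median was -0.42. The 3 were mrps-15, mrpl-22 and mrps-22, listed under older sequence names, at -1.09, -1.03 and -1.02, and all 3 calls were lost after centring. Aminoacyl-tRNA synthetases, which charge tRNAs with amino acids, had 3 falls among 32 genes (9.38%, near the share of all genes) and a median of -0.69. Translation initiation and elongation factors had 11 falls among 40 genes (27.5%) and a median of -0.76. Of these, eft-3, the gene of elongation factor 1 alpha, had 2.13 and 4.39 RPKM in HRDE-1 sRIP, against 21.6 and 22.2 RPKM in the input (-2.48 ± 0.34 SE, limma adjusted p = 0.0101). eft-2, which encodes elongation factor 2, had 11.5 and 9.74 RPKM in HRDE-1 sRIP, against 51.8 and 61.5 RPKM in the input (-2.31). For both genes each HRDE-1 value lay below each input value, as for nearly all genes called lower. Without HRDE-1 replicate 1 or 2, or either CSR-1 replicate, 0 translation factors were called, while with the input as 2 samples 10 to 12 were, and 4 after centring.

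Proteasome and CCT chaperonin genes fell more often than the 10.3% of all genes. The 33 proteasome genes, whose products degrade ubiquitylated proteins, had 15 falls (45.5%) and 0 rises, and all 33 log2 fold changes lay below 0 (median -0.97). pbs-1, a subunit of the catalytic core, had 18.0 and 14.4 RPKM in HRDE-1 sRIP, against 49.3 and 59.4 RPKM in the input (-1.69 ± 0.16 SE, limma adjusted p = 0.00893). rpn-11, which removes ubiquitin from substrates, had 41.1 and 30.01 RPKM in HRDE-1 sRIP, against 94.95 and 90.5 RPKM in the input (-1.37, a call lost with no filter on low values). After centring 1 proteasome gene was called lower, with a median of -0.60, and without either replicate of HRDE-1 or CSR-1 0 were. Of the 8 genes of the CCT chaperonin, which folds actin and tubulin, cct-1, cct-2, cct-4, cct-5 and cct-7 fell (62.5%). cct-5 was the largest, with 4.04 and 2.87 RPKM in HRDE-1 sRIP, against 15.57 and 15.997 RPKM in the input (-1.93). The uncalled cct-3, cct-6 and cct-8 had log2 fold changes of -0.59, -0.88 and -0.87. After centring the calls of cct-1, cct-2 and cct-7 were lost. Heat shock proteins had 6 falls among 18 tested entries (33.3%), and 8 of the 18 had log2 fold changes above 0, with hsp-16.2 and hsp-16.41, small heat shock genes, at 1.06 each and not called. The falls included hsp-1, a member of the HSP70 family, with 20.8 and 19.2 RPKM in HRDE-1 sRIP, against 76.3 and 86.6 RPKM in the input (-1.97). The HSP90 gene daf-21 stood at -1.34, a call lost after centring. The mitochondrial chaperonin hsp-60 was in the table as 2 models with an entry each, of which Y22D7AL.5b.1 fell by 1.53 on the log2 scale and Y22D7AL.5a.1 stood at -0.82, not called. The 30 DnaJ genes had 1 rise and 2 falls, and their 6.67% lower lay below the share of all genes. The median of the heat shock list, -0.52, was 0.14 within replicate 1 and -0.79 within replicate 2.

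Other lists of genes used by every dividing cell had 6.98% to 15.8% of genes called lower, around the 10.3% of all genes. Splicing factors had 3 falls among 43 genes (6.98%), nuclear pore proteins 3 among 26 (11.5%) and DNA replication factors 4 among 28 (14.3%). Genes named for roles at kinetochores, centrosomes and the spindle had 6 falls among 38 (15.8%). All 4 lists had 0 rises, against 7.15% of all genes. Their medians were -0.57, -0.67, -0.70 and -0.68, against -0.03 for all genes. The largest falls among the spindle list were spd-3, zyg-11 and zyg-8. spd-3 is known as a mitochondrial protein and zyg-11 as a substrate adaptor of a cullin ubiquitin ligase, while zyg-8 binds microtubules. Every gene of these 4 lists that the naming rule picked lost its call after centring. The 69 tested histone genes had 10 falls (14.5%) and a median of -0.20, which turned to 0.19 after centring and 0.02 without input replicate 2. Of these, 30 had values identical to another gene's in all libraries, so copies of one histone are not separate measurements.

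**Figure D4:**
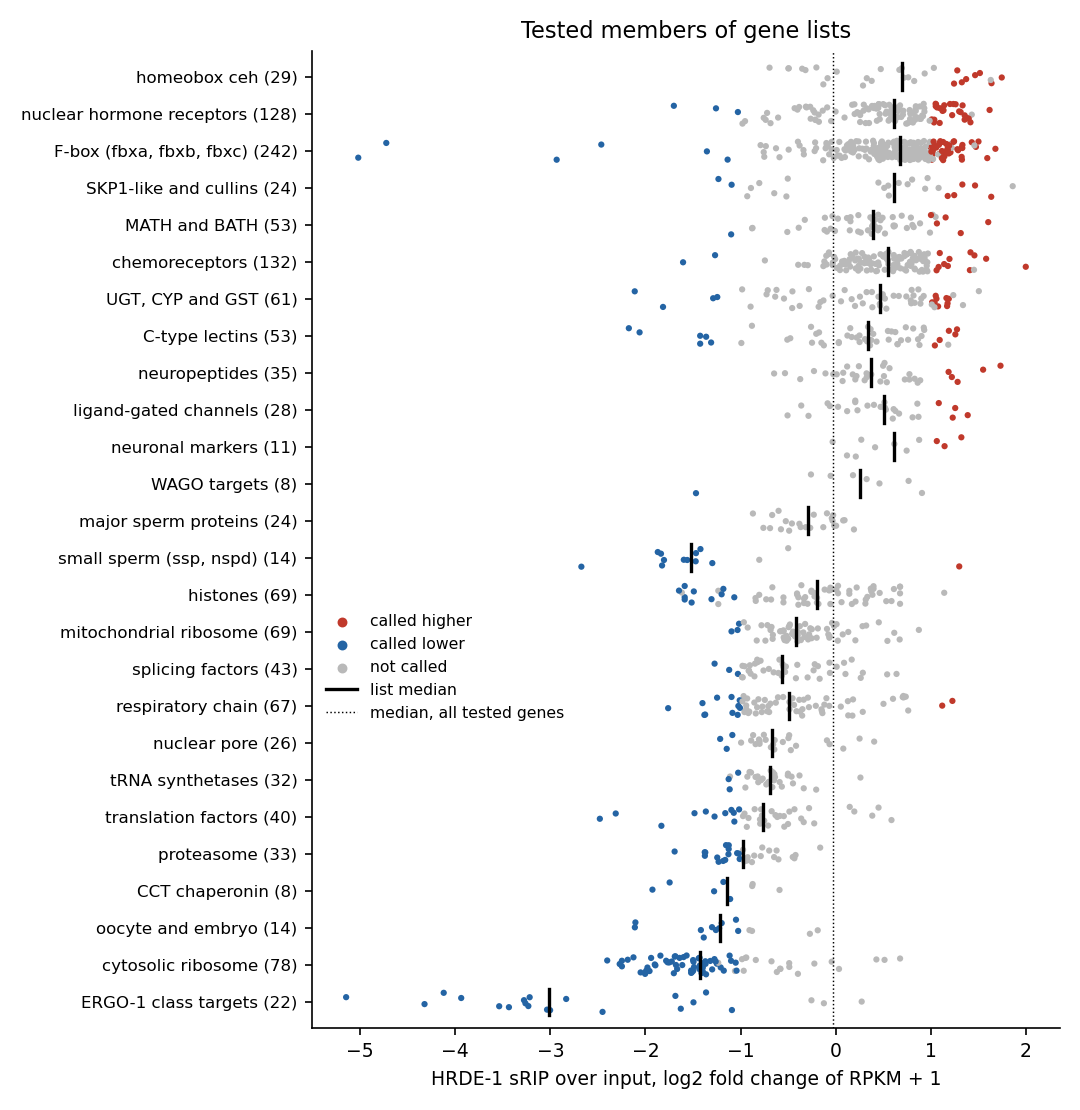
Each point is 1 tested gene, with its log2 fold change of HRDE-1 sRIP over input on the x axis and its list on the y axis with the number tested. Points are red where called higher, blue where called lower and grey otherwise, and black bars are list medians. F-box genes and nuclear hormone receptors lie to the right of the dotted median of all genes, the cytosolic ribosome and ERGO-1 class targets to the left. After centring, the medians of histones and major sperm proteins change sign.

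F-box genes were among the families that gained small RNA. F-box proteins bring substrates to ubiquitin ligases, and their families have expanded greatly in C. elegans. Of 356 F-box genes of the fbxa, fbxb and fbxc classes, 242 were tested, of which 44 rose and 6 fell (18.2% against 7.15% of all genes, and 2.48% against 10.3%). Their median was 0.68, and 213 of the 242 had log2 fold changes above 0. By class, fbxb and fbxc had 20 rises among 96 genes and 9 among 38, with 0 falls in either, while fbxa had 15 rises and all 6 falls among 108. fbxa-83 had 53.1 and 59.1 RPKM in HRDE-1 sRIP, against 15.7 and 17.8 RPKM in the input (1.68 ± 0.21 SE, limma adjusted p = 0.00956). By contrast fbxa-61 had 4.92 and 3.21 RPKM in HRDE-1 sRIP, against 132 and 130 RPKM in the input (-4.73 ± 0.23, limma adjusted p = 0.00651). The family's share of reads on genes was 3.02% and 3.17% in HRDE-1 sRIP, against 2.20% and 2.18% in the input. When HRDE-1 replicate 1 or 2 was left out, the rises numbered 3 and 4, and without either CSR-1 replicate 0, against 32, 42, 51 and 51 with the input as 2 samples. They numbered 139 after centring, 26 when genes at low values were kept, and 27 with 0.1 as the pseudocount.

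Among partners of F-box proteins, skr genes rose more often than the 7.15% of all genes. SKP1-like proteins join F-box proteins to cullins, the scaffolds of these ligases. Of 18 skr genes tested, 5 rose (27.8%) and skr-2 fell (5.56%, against 10.3% of all genes). skr-7 had 34.3 and 33.2 RPKM in HRDE-1 sRIP, against 11.9 and 8.42 RPKM in the input (1.64 ± 0.16 SE, limma adjusted p = 0.00893). skr-8 had 17.0 and 17.1 RPKM in HRDE-1 sRIP, against 6.61 and 5.72 RPKM in the input. skr-2 had 4.29 and 4.29 RPKM in HRDE-1 sRIP, against 12.3 and 10.6 RPKM in the input (-1.23), and the cullin gene cul-2 stood at -1.09. Both of these falls were lost after centring. Genes of this family are near copies of each other, and how reads that match several copies were counted is not given in the sources used here. MATH domain genes belong to another expanded family of likely ubiquitin ligase adaptors. Of 23 tested math genes 5 rose (21.7%) and 0 fell. Of 30 tested bath genes 0 rose and bath-40 fell (3.33%), a call lost after centring. The medians of the math and bath classes were nonetheless 0.42 and 0.40. math-9 had 9.55 and 11.14 RPKM in HRDE-1 sRIP, against 2.37 and 3.07 RPKM in the input.

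The nuclear hormone receptor and ceh homeobox families also gained small RNA. Nuclear hormone receptors, a family of ligand-regulated transcription factors, had 25 rises and 3 falls among 128 tested genes of 280 (19.5% and 2.34%), with a median of 0.62. nhr-17 had 31.7 and 29.2 RPKM in HRDE-1 sRIP, against 9.22 and 9.26 RPKM in the input (1.62 ± 0.17 SE, limma adjusted p = 0.0093). nhr-49, a regulator of fat metabolism, had 7.88 and 7.28 RPKM in HRDE-1 sRIP, against 15.2 and 17.7 RPKM in the input (-1.03), a call lost after centring. With HRDE-1 replicate 1 or 2 omitted, 3 receptors rose in each case and without either CSR-1 replicate 0, against 26, 22, 27 and 27 with the input as 2 samples. After centring 64 rose. Of the ceh homeobox genes, developmental transcription factors, 8 of 29 tested genes rose and 0 fell (27.6%). ceh-99 and ceh-86, listed as T21B4.17 and F42G2.6, stood at 1.64 and 1.52. ceh-93, listed as R04A9.5 and X-linked, had 16.4 and 15.3 RPKM in HRDE-1 sRIP, against 3.74 and 4.31 RPKM in the input (1.75 ± 0.20, limma adjusted p = 0.00937). The autosomal members of both families had positive medians too, 0.62 for nhr genes and 0.47 for ceh genes. Only 128 of 280 nhr genes and 29 of 63 ceh genes passed the filter on low values, which may bear on these medians. Without HRDE-1 replicate 1 or 2, 1 ceh gene was called in each case, and after centring 16 were.

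Families of receptors, channels and enzymes of somatic tissues were lowly covered and gave mixed counts. Of 1340 chemoreceptor genes 760 had no read in any of the 4 libraries and 132 were tested. Of those, 11 rose and 2 fell (8.33% and 1.52%), so the share that rose lay near the 7.15% of all genes, while the median was 0.55. The tested members had a median input of 1.73 RPKM, and a gene could pass the filter through the libraries of 1 group alone. The filter may therefore bear on this median and on those of the other lowly covered families here. str-172 had 26.3 and 24.3 RPKM in HRDE-1 sRIP, against 9.89 and 7.78 RPKM in the input (1.42). Neuropeptide and insulin-like genes had 5 rises (14.3%) and 0 falls among 35. ins-13, an insulin-like peptide gene, had 17.0 and 16.5 RPKM in HRDE-1 sRIP, against 5.14 and 4.997 RPKM in the input. Ligand-gated channel genes had 4 rises (14.3%) and 0 falls among 28. Detoxification enzymes of the UGT, CYP and GST families had 9 rises and 4 falls among 61 (14.8% and 6.56%). ugt-45 had 44.6 and 49.4 RPKM in HRDE-1 sRIP, against 18.1 and 22.3 RPKM in the input. C-type lectins had 5 rises and 6 falls among 53 (9.43% and 11.3%, near the 7.15% and 10.3% of all genes) and a median of 0.34. Cuticle collagens had 2 rises and 0 falls among 30 (6.67% higher) and a median of 0.07, which turned to -0.0070 without input replicate 2. Prion-like pqn genes had 0 rises and 2 falls among 25 (8% lower). Hedgehog-related and patched-related genes had 2 rises and 2 falls among 23 (8.7% each way).

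Pseudogenes rose more often than the 7.15% of all genes. Of 339 tested genes that the annotation types as pseudogenes, 46 rose and 16 fell (13.6% and 4.72%), with a median of 0.39. Protein-coding genes had 6.98% higher and 10.5% lower, a split that centring turned to 20.8% and 2.94%. The pseudogenes that rose were mostly autosomal, 44 of 282 against 2 of 57 on the X. Of 9 long intergenic non-coding RNA genes 5 fell (55.6%, against 10.3% of all genes) and 0 rose. When HRDE-1 replicate 1 or 2 was left out, 11 pseudogenes rose in each case, and without either CSR-1 replicate 0, against 41, 42, 51 and 51 with the input as 2 samples. The count was 25 with no filter, 21 with a pseudocount of 0.1 and 118 after centring.

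Of the lists described here, targets of ERGO-1 class siRNA, which is bound by another Argonaute, had the lowest median. Of 22 genes listed as such targets 19 fell (86.4%, against 10.3% of all genes) and 0 rose, with a median of -3.02. Their median levels were 29.5 RPKM in HRDE-1 sRIP and 203 RPKM in the input. Of the 30 genes with log2 fold changes of -3 or lower, 12 were in this list, and these included all 4 pseudogenes of the 30. The list took 0.277% and 0.288% of reads on genes in HRDE-1 sRIP, against 1.04% and 1.01% in the input. T08B6.2, a pseudogene, had 1.58 and 5.54 RPKM in HRDE-1 sRIP, against 148 and 142 RPKM in the input (-5.15 ± 0.56 SE, limma adjusted p = 0.00937). H09G03.1, a long intergenic non-coding RNA gene, had 6.98 and 6.41 RPKM in HRDE-1 sRIP, against 158 and 147 RPKM in the input (-4.32). For both genes the HRDE-1 libraries lay far below both input libraries. Other members were not called. E01G4.7 had 527 RPKM in HRDE-1 sRIP and 626 RPKM in the input (-0.25), F39F10.4 stood at -0.12 and H16D19.4 at 0.27, all 3 of them uncalled, and at 0.12, 0.26 and 0.65 after centring. The list was drawn up with earlier results of these data known, so its direction is not independent evidence. With HRDE-1 replicate 1 or 2 omitted, 2 and 3 members were called, and without either CSR-1 replicate 0, while with the input as 2 samples each omission left 19.

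Known targets of the WAGO pathway, the group of Argonautes to which HRDE-1 belongs, had 0 rises among 8 genes on the deposited scale. ssp-16, which had few reads, fell, a call that was lost with the input as 2 samples and after centring. The median was 0.25, with 190 RPKM in HRDE-1 sRIP and 145 RPKM in the input. rde-11, an RNAi factor listed as B0564.11, had 494 and 572 RPKM in HRDE-1 sRIP, against 280 and 285 RPKM in the input (0.91 ± 0.22 SE, limma adjusted p = 0.0299). xol-1, the X-linked switch gene of sex determination, had 155 and 169 RPKM in HRDE-1 sRIP, against 90.9 and 98.5 RPKM in the input (0.77 ± 0.15, limma adjusted p = 0.0172). For both genes every HRDE-1 value lay above every input value, with a fold below the limit of 2. The groups stood apart in this or the opposite direction for 6766 of the 9004 genes not called. After centring both were called higher, at 1.28 and 1.14. sid-1, a channel for double-stranded RNA, stood at 0.33 and C38D9.2 at -0.26, which turned to 0.12 after centring. bath-45 had 895 and 1174 RPKM in HRDE-1 sRIP, against 1016 and 1110 RPKM in the input (-0.05, and 0.32 after centring), so its groups overlapped.

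Lists of germline genes had unlike counts. Of 14 oocyte and early embryo regulators 10 fell (71.4%, against 10.3% of all genes) and 0 rose, with a median of -1.21. pie-1, which blocks transcription in the germline precursors, had 8.64 and 5.24 RPKM in HRDE-1 sRIP, against 20.7 and 18.7 RPKM in the input (-1.42, a call lost with no filter). oma-1, a fragment of which sits in Cer3 in this strain, was not called, with 26.6 and 28.8 RPKM in HRDE-1 sRIP, against 33.1 and 30.3 RPKM in the input. Reads on oma-1 and on that fragment cannot be told apart. After centring 4 of the 14 genes were called lower, and without HRDE-1 replicate 1 or 2 or either CSR-1 replicate 0. Of 24 major sperm protein genes 0 were called in either direction by limma, with a median of -0.29 that turned to 0.16 after centring. Small sperm genes of the ssp and nspd classes had 11 falls and 1 rise among 14 (78.6% and 7.14%). Their levels were low (median 0.27 RPKM in HRDE-1 sRIP and 2.68 RPKM in the input). The median log2 fold change of these small sperm genes was -1.52, and -1.44 with bounds for genes at 0. nspd-7 had 0 reads in HRDE-1 sRIP, against 5 and 4 in the input, and was at least 5.04-fold lower with a floor of 3 reads over the HRDE-1 group. Among 17 tested Argonaute genes 2 fell, a share of 11.8% that lies near the 10.3% of all genes. They were wago-4 and prg-2, which the annotation types as a pseudogene and whose fall of 1.01 on the log2 scale was not called after centring. wago-4, listed as F58G1.1, had 64.8 and 65.3 RPKM in HRDE-1 sRIP, against 140 and 141 RPKM in the input (-1.10 ± 0.14 SE, limma adjusted p = 0.0096), a call lost after centring, when the list's median of -0.34 turned to 0.038.

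Markers of somatic tissues also went both ways. Of 11 tested neuronal genes 3 rose (27.3%, against 7.15% of all genes) and 0 fell, with a median of 0.62. unc-119, a lipid-binding trafficking factor of neurons, had 90.02 and 88.4 RPKM in HRDE-1 sRIP, against 35.4 and 34.7 RPKM in the input (1.32 ± 0.10 SE, limma adjusted p = 0.00893). syd-2, an X-linked scaffold gene of synapses, had 12.3 and 12.8 RPKM in HRDE-1 sRIP, against 4.43 and 6.48 RPKM in the input (1.06, not called without input replicate 1). Of 10 intestinal genes 6 were tested and 3 fell (50%, against 10.3% of all genes), all with a mean of 2.50 RPKM or less in the input. The yolk protein gene vit-5 had 1 read in HRDE-1 sRIP, against 40 in the input, a read ratio of 0.0149 with an exact 95% counting interval of 0.000368 to 0.0878. vit-6 had 0 reads in HRDE-1 sRIP, against 19 in the input, at least 10.6-fold lower. Of 11 muscle genes 4 were tested and 1 fell (25%), act-4, with 2 reads in HRDE-1 sRIP, against 13 in the input. mlc-1, mlc-2, unc-15 and unc-27 had 0 reads in all 4 libraries. These intervals and floors hold counting error alone, since reads were not tied to single molecules by identifiers.

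Of the 10 largest gains among well covered genes, all but syn-1 were in genes known only by sequence names. Most tested genes were listed by such a name, 6893 against 4015 with a gene class symbol. Of the former 550 rose (7.98%) and of the latter 230 (5.73%), so the names alone say little about these gains. F02H6.2, on chromosome IV from 14196476 to 14198802 on WBcel235, had 48.9 and 41.5 RPKM in HRDE-1 sRIP, against 9.47 and 11.2 RPKM in the input (2.02 ± 0.15 SE, limma adjusted p = 0.00893). F53F8.3, on chromosome V, had 43.1 and 47.6 RPKM in HRDE-1 sRIP, against 10.36 and 12.7 RPKM in the input (1.88 ± 0.12, limma adjusted p = 0.00865). T02G6.5, on chromosome I, had 43.4 and 43.3 RPKM in HRDE-1 sRIP, against 12.7 and 9.496 RPKM in the input (1.88). The replicates of these genes lay close together and far from the other group. syn-1, an X-linked gene of the syntaxin family of membrane fusion proteins whose current name is syx-3, had 27.6 and 22.7 RPKM in HRDE-1 sRIP, against 6.96 and 5.41 RPKM in the input (1.86). 2L52.1, the first annotated gene of its end of chromosome II, starting at 1848, had 62.7 and 58.0 RPKM in HRDE-1 sRIP, against 19.41 and 13.7 RPKM in the input (1.80). D2096.5, K01G12.3, C17E7.12, C49C3.8 and C33D9.8 followed at 1.86, 1.79, 1.79, 1.77 and 1.77. D2096.5 and C17E7.12 varied in the input, with 16.8 and 5.74 RPKM and with 20.5 and 8.44 RPKM, and those calls, with that of C49C3.8, were lost with no filter on low values.

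The largest losses were larger by far. F19G12.4, a short gene on the X from 1417304 to 1417477, had 0 reads in both HRDE-1 libraries, against 27 and 17 reads in the input (56.9 and 46.4 RPKM). It was at least 24.6-fold lower. Y17D7B.4, on chromosome V, had 18.8 and 20.3 RPKM in HRDE-1 sRIP, against 598 and 594 RPKM in the input (-4.86 ± 0.12 SE, limma adjusted p = 0.00202). Y47H10A.5, on chromosome I, had 20.6 and 18.1 RPKM in HRDE-1 sRIP, against 477 and 498 RPKM in the input (-4.59). Both were well covered in each input library, and the groups stood far apart. fbxa-52, on the X, had 3.75 and 1.05 RPKM in HRDE-1 sRIP, against 101 and 99.8 RPKM in the input (-5.02). eri-12, listed as B0001.6 and named for an enhanced RNAi phenotype, had 2.55 and 2.50 RPKM in HRDE-1 sRIP, against 65.6 and 58.4 RPKM in the input (-4.16 ± 0.14, limma adjusted p = 0.00202). C18D4.4 and Y46D2A.1 stood at -4.33 and -4.37. X-linked genes were 7 of the 30 genes at -3 or lower and 15 of the 90 at -2 or lower. Of all 10908 genes tested 1169 were X-linked, so the X had a larger share among these losses.

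**Figure D5:**
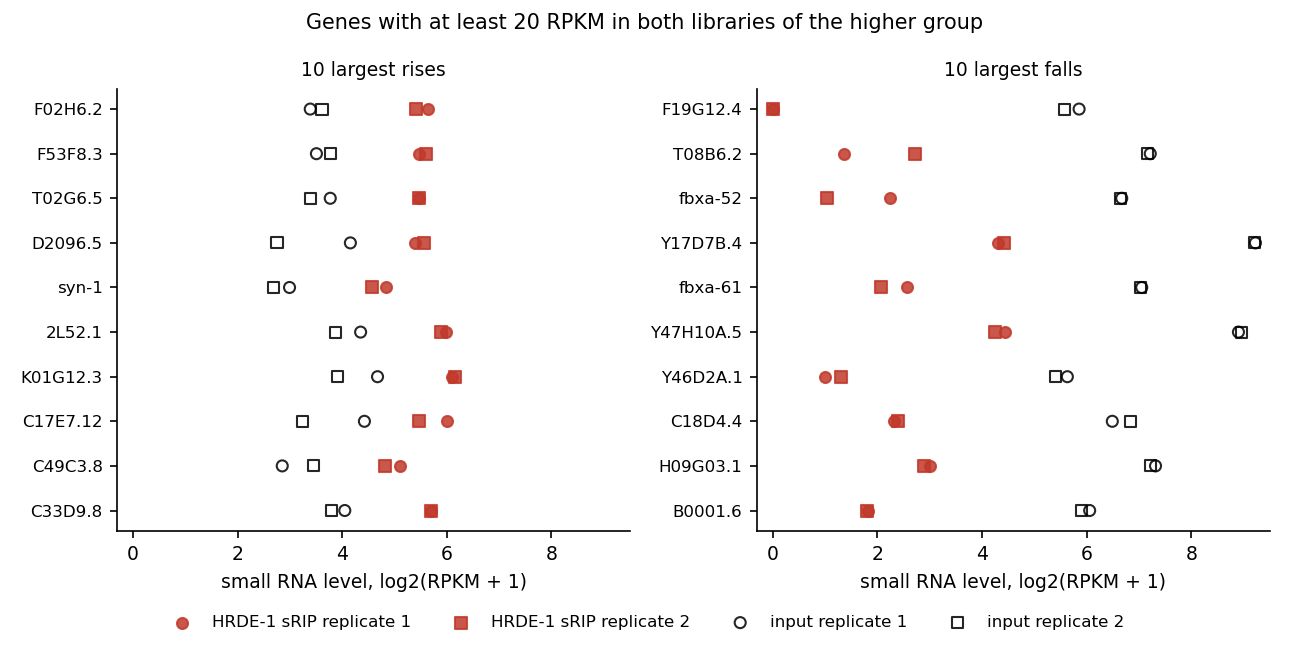
Points give the small RNA level of single genes in each library on the x axis (log2 of RPKM + 1), with filled red symbols for HRDE-1 sRIP and open black symbols for input, circles for replicate 1 and squares for replicate 2. The 10 largest rises (left) and 10 largest falls (right) are shown among called genes with at least 20 RPKM in both libraries of the higher group. The groups do not overlap for any of the 20 genes, as for all 780 genes called higher and 1123 of the 1124 called lower. F19G12.4 is at 0 in both HRDE-1 libraries.

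Genes that moved the same way often lay side by side. Of the 763 gained genes placed on WBcel235, 240 (31.5%) had a gained gene as the next tested gene on either side, against 13.4% of all 10625 placed genes. Of 1097 lost genes 302 (27.5%) had a lost neighbour, against 2056 of all 10625 placed genes. Only 14 of the 240 and 24 of the 302 overlapped that neighbour. Neighbours share chromosome, family and level, and what part these have was not tested. The longest run of gained genes held 6 genes on chromosome IV, namely K01G12.3, F02H6.2, F02H6.1, F02H6.3, F02H6.4 and F02H6.5. Within it F02H6.4 had 66.0 and 68.2 RPKM in HRDE-1 sRIP, against 22.1 and 17.5 RPKM in the input (1.71), and F02H6.1 had 2.54 and 2.67 RPKM in HRDE-1 sRIP, against 1.14 and 0 RPKM in the input. Another run on chromosome III held the F-box genes fbxa-77, fbxa-91, fbxa-208 and fbxa-92. The longest run of lost genes held 6 genes on the X, namely ZK402.5, ZK402.3, ZK402.2, ZK402.1, F19G12.4 and F19G12.3. ZK402.3, a pseudogene in the list of ERGO-1 class targets, had 29.5 and 32.7 RPKM in HRDE-1 sRIP, against 184 and 164 RPKM in the input (-2.45). ZK402.2, which is not in that list, had 19.9 and 17.7 RPKM in HRDE-1 sRIP, against 88.9 and 74.9 RPKM in the input (-2.07). The runs were chosen after their values were seen.

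By position on the autosomes, each cut into 3 equal segments, 6.58% of 5882 genes in the outer segments rose and 10.3% fell, with a median of 0.01. In the middle segments 4.90% of 3574 genes rose and 12.5% fell, with a median of -0.36. After centring the medians were 0.41 and 0.03, so that of the middle segments changed sign. The first segment of chromosome II had 12% of genes higher and 6.88% lower, and the first segment of chromosome V 11.4% and 8.07%. The first segment of chromosome I had 1.18% higher and 12.8% lower. Middle segments also had more small RNA in the input, with a median of 19.97 RPKM, against 16.1 RPKM in the outer segments, and the part of level in these shares was not tested.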

How the data were processed

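The members and gene lists were chosen with earlier results of these data known. The authors' deposited table holds RPKM per gene model, per the file headers. Bowtie 1.2.3 is named in the submitters' processing notes, and no source used here gives the genome build, read lengths, strand rule or handling of multiply matching reads. Of another table, 45 value columns were not used here.

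Whole reads were deduced from the RPKM steps (100% of 80624 values whole within 0.000001). For 610 symbols with several models the highest model was kept. The fit by limma 3.58.1 (R 4.3.3) used log2(RPKM + 1) of 5 samples in 3 groups, with a trended prior (2.8 degrees of freedom), 2 residual degrees of freedom, two-sided moderated tests and Benjamini-Hochberg adjustment, and was tested on simulated data. The spread of the single input sample was taken from the 2 precipitate groups.

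Names, chromosomes and gene types came from the WBcel235 annotation of Ensembl release 115, matched for 97.0% of genes. Lists were matched on its current names, after older symbols were seen to leave lists short. Chromosomes were cut into 3 equal segments up to their last annotated gene end. Named genes were the 10 largest rises and falls among called genes with at least 20 RPKM in each library of the higher group, up to 3 called members a direction per list at 5 RPKM or more, the 8 highest genes per group and all members of lists of up to 12. X-linked members of housekeeping lists, uncalled ERGO-1 class targets, oma-1 and runs were named after their values were seen.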

Additional observations from a re-analysis of the deposited data

How the results depend on the processing

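Counts of genes higher and lower were within 1.5 times of 780 and 1124 with the input as 2 samples (935 and 1153), with the HRDE-1 and input libraries alone (909 and 1149), with a pseudocount of 0.1 (540 and 1249) and with each sample's median ratio to input at 0 (1032 and 998). No filter on low values gave 491 higher. Centring gave 2309 higher and 328 lower. Replicate numbers did not pair the samples (r = 0.02 between deviations of HRDE-1 sRIP and input), and a fit with the replicate as a block gave 940 higher and 1159 lower.

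With no filter, 129 X-linked genes, 25 pseudogenes and 26 F-box genes were higher. A pseudocount of 0.1 gave 21 pseudogenes and 27 F-box genes. After centring 498 X-linked genes, 118 pseudogenes, 139 F-box genes, 64 nuclear hormone receptors and 16 ceh genes were higher, and 29 X-linked genes, 1 proteasome gene, 4 translation factors and 4 oocyte regulators lower. Centring also turned the medians of Argonautes (0.038), major sperm proteins (0.16), histones (0.19), spe and fer genes (0.10) and autosomal genes (0.27). Without input replicate 2 the medians of collagens (-0.0070), pqn genes (-0.15) and histones (0.025) turned, and without input replicate 1 that of pqn genes (-0.07). With 1 replicate left out these medians ranged from -0.0070 to 0.15 for collagens, from -0.15 to 0.12 for pqn genes and from -0.38 to 0.025 for histones.

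Over fits that each left out 1 replicate, genes higher ranged from 0 to 1045 and lower from 0 to 1256. Ranges of higher genes were 0 to 245 on the X, 0 to 64 for pseudogenes, 0 to 54 for F-box genes, 0 to 32 for nuclear hormone receptors and 0 to 9 for ceh genes. Ranges of lower genes were 0 to 53 on the X, 0 to 61 for ribosomal proteins, 0 to 18 for the proteasome, 0 to 12 for translation factors, 0 to 11 for oocyte regulators and 0 to 19 for ERGO-1 class targets. Leaving out a replicate of HRDE-1 or CSR-1 left 1 residual degree of freedom. The 0 values came without a CSR-1 replicate, and for the proteasome, translation factors and oocyte regulators also without an HRDE-1 replicate. No named called gene changed direction, and 82 of 122 kept their call after centring, which also made calls of rde-11, xol-1 and the muscle gene hlh-1, at 1.28, 1.14 and 1.04. Genes with few reads carry a large counting error, which limits what can be read from a single one of them.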
